A study of Mus musculus with 13 samples.

Results

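Replication and mitosis were followed through 50 cell cycle genes in single cells of the mouse colon epithelium. The genes were taken as a fixed list of symbols, and all 50 are among the 32285 genes of the deposited matrix. Earlier results of these data were known when the members and the other lists were chosen. They comprised 19 genes of DNA replication (called S genes below), 27 genes of G2 and mitosis (G2/M genes) and 4 genes of cell cycle entry or general proliferation (Ccnd1, Ccnd2, Stmn1 and Hmgb2). A count of at least 100 UMI (unique molecular identifiers, 1 per captured RNA molecule) over all cells was reached by 48 of the 50. The other 2, Cdc6 and Ccne1, had 94 and 54 UMI and entered no count between conditions or by gate.

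The comparison was between wild type C57BL/6J mice given antibiotic (the agent is not named in the labels) and germ-free C57BL/6J mice, for which no antibiotic is stated. All antibiotic cells came from batch 1 and all germ-free cells from batch 2, and effects of batch and of condition cannot be told apart. The labels used here give no age, sex or number of mice. Mice were pooled by condition before sorting, so each condition was 1 pool without replicate animals, and no test between conditions was possible. From every pool, EPCAM+ CD45- epithelial cells were sorted as equal parts of CD44+ cells, described as proliferative, and CD44- cells, described as differentiated. That sort sets the share of cycling cells, which is therefore not the share in the tissue. Of the 13 samples in the labels, 3 antibiotic and 2 germ-free expression libraries were used, and barcode libraries and other mice were not analysed here.

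In the colon, cells divide in the lower crypt, where Lgr5 marks the stem cells, and stop dividing as they move to the surface and become absorptive colonocytes or goblet cells. In the cycle, E2F factors switch on replication genes before S phase. Genes of mitosis are held down by the DREAM complex, which binds a promoter element named CHR, and are switched on later by B-Myb and FoxM1, often together with NF-Y bound to a CCAAT box. A transcript of S phase and one of mitosis therefore mark different stages of the same cell.

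The matrix held 4183 cell profiles in 5 numbered cell sets, antibiotic 1, 2 and 3 and germ-free 3 and 4, with 36530277 UMI in 3415 antibiotic profiles and 3100880 UMI in 768 germ-free profiles. Median depth was 6599 to 7420 UMI per cell in the antibiotic sets, 4681.5 in germ-free 4 and 1045 in germ-free 3, which stands apart. The median share of mitochondrial UMI was 12.1% among antibiotic profiles and 20.3% among germ-free ones. Cell barcodes were shared between antibiotic sets: 837 of the 3415 antibiotic profiles (24.5%) repeated a barcode of a deeper profile in another antibiotic set, and 2578 barcodes were distinct. The repeats held 3.40% of the antibiotic UMI, and in 835 of 837 the correlation with the profile of the same barcode was above that with a profile of nearest depth. No barcode was shared between conditions or between the germ-free sets. Results that rest on numbers of cells are given with and without the repeats. Epithelial markers summed to 5304 and 5572 CPM (UMI counts per 1e+06 UMI) in antibiotic and germ-free cells, against 5.67 and 5.48 CPM for 7 immune markers, 2 of them at 0, and 3.61 and 3.55 CPM for 6 stromal markers. Intervals are 95% intervals for counting error only, save those of medians, which span the genes of a list. None of them covers differences between mice.

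The promoters of 4 members are shown first, because the share of promoters with E2F or CHR letters differed between S and G2/M genes. RefSeq promoter sequences (build GRCm38.p6, from 250 bases before to 50 after the start site) matched 40 of the 50 members, 16 of them S genes and 23 G2/M genes. Printed are, for each phase, the pair of genes with most UMI among those whose window held the searched letters. Capitals mark the E2F letters (TTCCCGC or TTGGCGC, either strand) in the S genes and the CHR letters (TTTGAA or TTCGAA, either strand) in the G2/M genes. Each window is read 5′ to 3′ on the strand of its gene. Mcm7 and Mcm6 encode subunits of the replicative helicase. Mki67 encodes the Ki-67 protein that coats mitotic chromosomes, and Top2a encodes the topoisomerase that untangles sister chromatids.
Mcm7, chr5:138171834-138172133, minus strand: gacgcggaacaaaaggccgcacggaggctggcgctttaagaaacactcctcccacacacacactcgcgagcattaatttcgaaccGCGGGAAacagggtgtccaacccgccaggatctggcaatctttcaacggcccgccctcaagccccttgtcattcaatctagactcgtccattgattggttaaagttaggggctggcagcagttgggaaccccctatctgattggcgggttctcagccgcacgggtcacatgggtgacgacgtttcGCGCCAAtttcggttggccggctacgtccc
Mcm6, chr1:128359656-128359955, minus strand: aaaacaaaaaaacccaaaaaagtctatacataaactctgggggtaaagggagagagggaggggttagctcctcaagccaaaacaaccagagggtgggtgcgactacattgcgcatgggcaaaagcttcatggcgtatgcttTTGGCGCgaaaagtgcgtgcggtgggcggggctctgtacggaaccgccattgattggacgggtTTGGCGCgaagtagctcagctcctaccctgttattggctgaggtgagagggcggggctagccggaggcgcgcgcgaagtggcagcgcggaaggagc
Mki67, chr7:135716330-135716629, minus strand: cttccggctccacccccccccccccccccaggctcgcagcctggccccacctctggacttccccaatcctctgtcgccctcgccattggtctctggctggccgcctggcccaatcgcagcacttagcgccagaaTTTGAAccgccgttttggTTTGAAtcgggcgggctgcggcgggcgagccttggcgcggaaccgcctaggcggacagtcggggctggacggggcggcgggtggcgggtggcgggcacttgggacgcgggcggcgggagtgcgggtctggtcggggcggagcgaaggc
Top2a, chr11:99024140-99024439, minus strand: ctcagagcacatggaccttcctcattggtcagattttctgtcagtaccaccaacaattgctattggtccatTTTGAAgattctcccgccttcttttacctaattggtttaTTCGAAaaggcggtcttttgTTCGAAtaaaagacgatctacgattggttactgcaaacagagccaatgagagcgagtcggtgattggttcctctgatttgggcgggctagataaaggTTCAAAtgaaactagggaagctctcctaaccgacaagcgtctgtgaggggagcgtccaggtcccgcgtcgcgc
Counted from the start site as 0, the E2F letters of Mcm7 began at -165 and 20, the latter overlapping a CCAAT box, and those of Mcm6 at -109 and -46. The CHR letters of Mki67 began at -116 and -98, and those of Top2a at -179, -140, -120 and -23. The Top2a window also held 6 CCAAT boxes. Both kinds of letters stood in the windows of Mcm7 and Mki67: CHR letters in Mcm7 and E2F letters in Mki67 are left in lower case.

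E2F letters stood in 8 of 16 S promoters (50%) and 3 of 23 G2/M promoters (13.0%), against 14.3% of the promoters of all genes with at least 100 UMI and 7.79% of all 27025 promoters. CHR letters stood in 19 of 23 G2/M promoters (82.6%) and 2 of 16 S promoters (12.5%), against 16.5% and 21.7%. CCAAT, also searched on both strands, stood in 82.6% of G2/M, 56.2% of S and 41.1% of all promoters. Other replication and mitosis genes, on lists that share no gene with the members, gave like shares: E2F letters in 15 of 28 other S promoters (53.6%) and CHR letters in 33 of 49 other G2/M promoters (67.3%). A match is a run of letters and not a measured binding site. The windows of Pcna and Tyms, the S genes with most UMI among those of DNA synthesis, held no E2F letters.

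**Figure D1:**
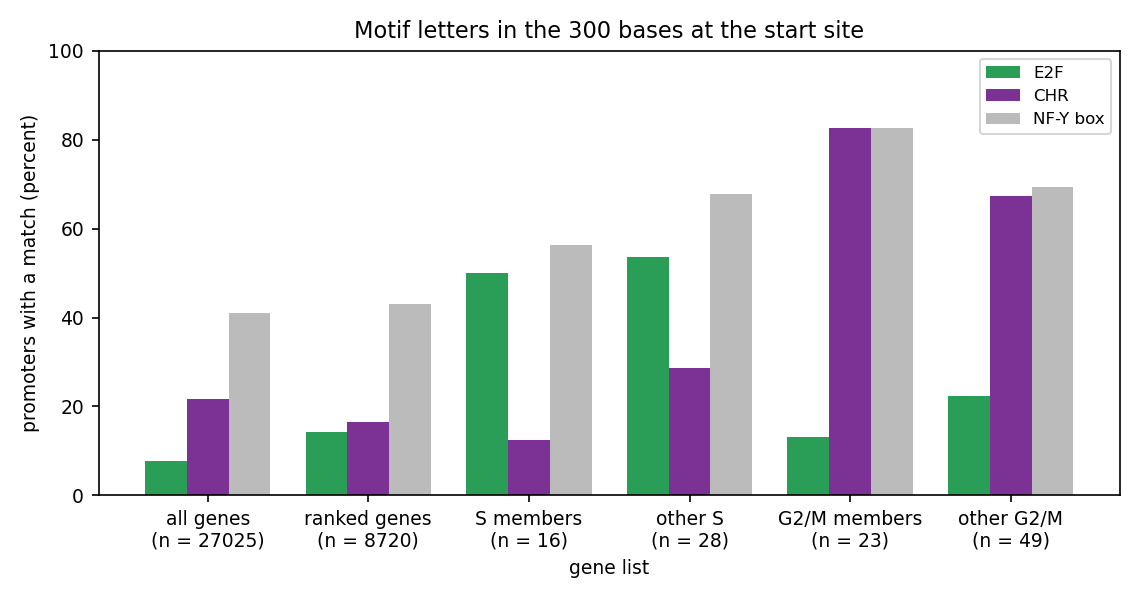
Percent of promoters (vertical axis) of 6 gene lists (horizontal axis, n promoters under each) that hold E2F, CHR or NF-Y box (CCAAT) letters. E2F bars are highest for S genes (50% and 53.6%) and CHR bars for G2/M genes (82.6% and 67.3%).

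The members marked a small group of cells. To compare cells at equal depth, the 3516 cells with at least 1000 UMI were thinned to 1000 UMI each, and a cell was called in cycle with at least 3 UMI of the S genes or at least 3 of the G2/M genes. By this rule 155 of 2891 antibiotic cells were in cycle (5.36%, interval 4.57 to 6.25%) and 43 of 625 germ-free cells (6.88%, 5.02 to 9.16%). By cell set the share was 5.98%, 5.61% and 4.82% in antibiotic 1, 2 and 3 and 9.04% and 6.10% in germ-free 3 and 4. Both germ-free sets were above all antibiotic sets in this draw, but the condition intervals overlapped. Over 20 draws, added later, the means of antibiotic 1 and germ-free 4 were 6.33% and 6.35%. Their single draws ran from 5.84 to 6.98% and from 5.23 to 7.19%, so these sets were not apart. Without the repeats the antibiotic share was 5.24% (128 of 2444). Without thinning the order turned, to 30.6% in antibiotic and 19.8% in germ-free cells, whose depths differ.

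Most calls came from the G2/M genes alone, which is not a measure of time spent in each phase. At the same threshold, the G2/M list held 14269 UMI in antibiotic profiles and the S list 5886. G2/M genes alone called 131 of the 155 antibiotic cells (84.5%) and 34 of the 43 germ-free cells (79.1%), S genes alone 16 and 7, and both lists 8 and 2. Without the repeats, G2/M genes alone called 85.9% of the antibiotic cells. The highest cell had 22 G2/M UMI among 1000, whereas no cell had more than 6 S UMI. At the threshold of 3 UMI lay 20 cells for the S call and 30 for the G2/M call, and just under it, at 2 UMI, 63 and 80 cells. With other replication and mitosis genes in place of the members, G2/M genes alone called 51.5% of the antibiotic cells in cycle, so the split between phases depended on which genes were counted. Among cells not in cycle, 78.9% of antibiotic and 68.6% of germ-free cells had no UMI of the 46 S and G2/M genes among their 1000.

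**Figure D2:**
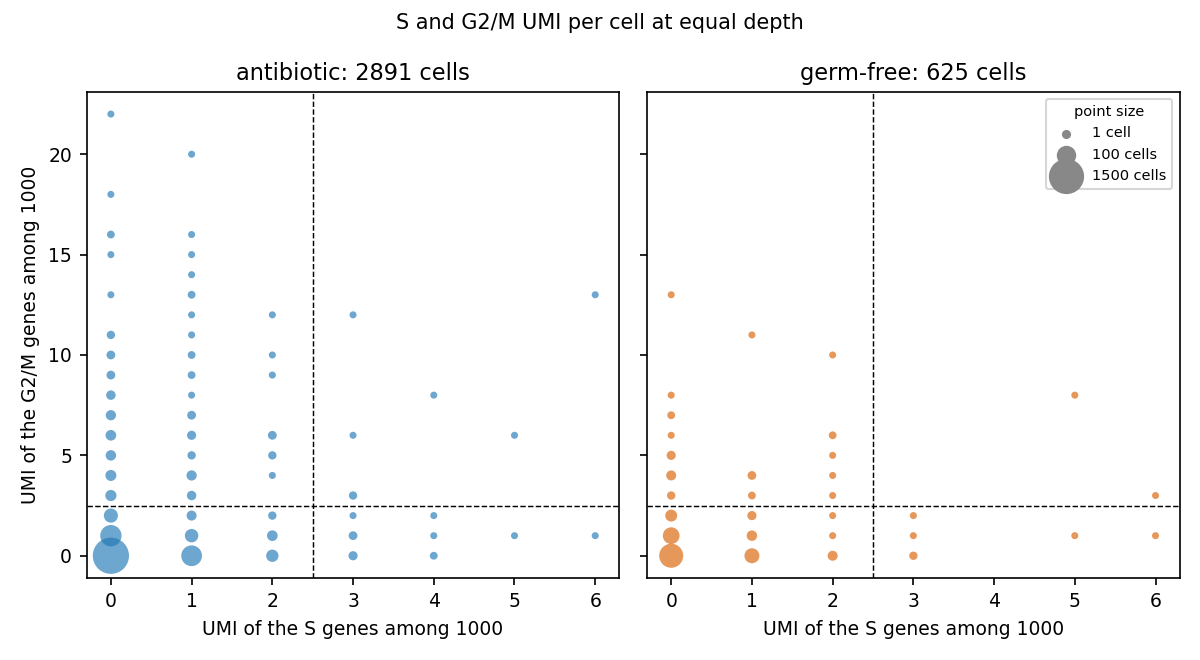
UMI of the S genes (horizontal axis) and the G2/M genes (vertical axis) among 1000 UMI per cell, for 2891 antibiotic and 625 germ-free cells, with point area growing with the number of cells. Dashed lines mark the call at 3 UMI, and few cells pass both lines (8 antibiotic, 2 germ-free).

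Each member was then read in cells called by the remaining members, leaving it out of its own call. G2/M genes were concentrated in the cells in cycle, and S genes less so, an order that cannot be separated from the call itself. G2/M genes alone called 131 of the 155 antibiotic cells in cycle, and S genes alone 16. The S genes left 371 cells with 1 S UMI and 63 with 2 uncalled. Cells in cycle held 4.23 to 4.52% of all UMI but 31.3% (Smc4, a condensin subunit) to 80.5% (Nusap1, a spindle protein) of the UMI of each G2/M gene, with a median of 65.2% over the 27 genes. Mki67 had 65.1% of its UMI there (933 CPM in cycle against 22.1 CPM elsewhere) and Top2a 67.8% (824 against 18.1 CPM). For the S genes the median was 25.8%, from 8.50% (Ung, which removes uracil from DNA) to 55.8% (Tk1, thymidine kinase). Pcna, the sliding clamp of DNA polymerase, had 12% of its UMI in cycling cells, with 121 CPM there and 41.2 CPM in the other cells. Ccnd2, a D-type cyclin, was at 194 CPM in cycle and 151 CPM elsewhere, so that only 5.75% of its UMI lay in cycling cells. Ccnd1 had 12.5%, the chromatin protein Hmgb2 30.6% and the microtubule regulator Stmn1 39.9%.

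Phase preference, the log2 ratio of CPM in G2/M-only over S-only cells, was negative for all 19 S genes and positive for all 27 G2/M genes. It ran from -2.00 (Mcm3) to -0.27 (Cdt1, a licensing factor) in the S genes and from 0.52 (Smc2, a condensin subunit) to 3.51 (Hmmr, a spindle assembly factor) in the G2/M genes. Pcna was at 278 CPM in S-only and 89.9 CPM in G2/M-only cells, Mcm7 at 183 and 58.2 CPM, and Mki67 at 273 and 1033 CPM. Top2a was at 565 CPM in S-only and 823 CPM in G2/M-only cells, a log2 ratio of 0.54, near the low end of the G2/M genes. The 2 nucleotide genes Rrm1 and Rrm2, subunits of ribonucleotide reductase, lay near the middle at -0.29 and -0.28. Among the entry genes, Ccnd1 (-0.14) and Ccnd2 (0.19) had little preference. S-only cells were few, 15 to 25 depending on the gene left out, and G2/M-only cells 150 to 168. All genes of a list are called in the same cells, so the members are not independent of each other.

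**Figure D3:**
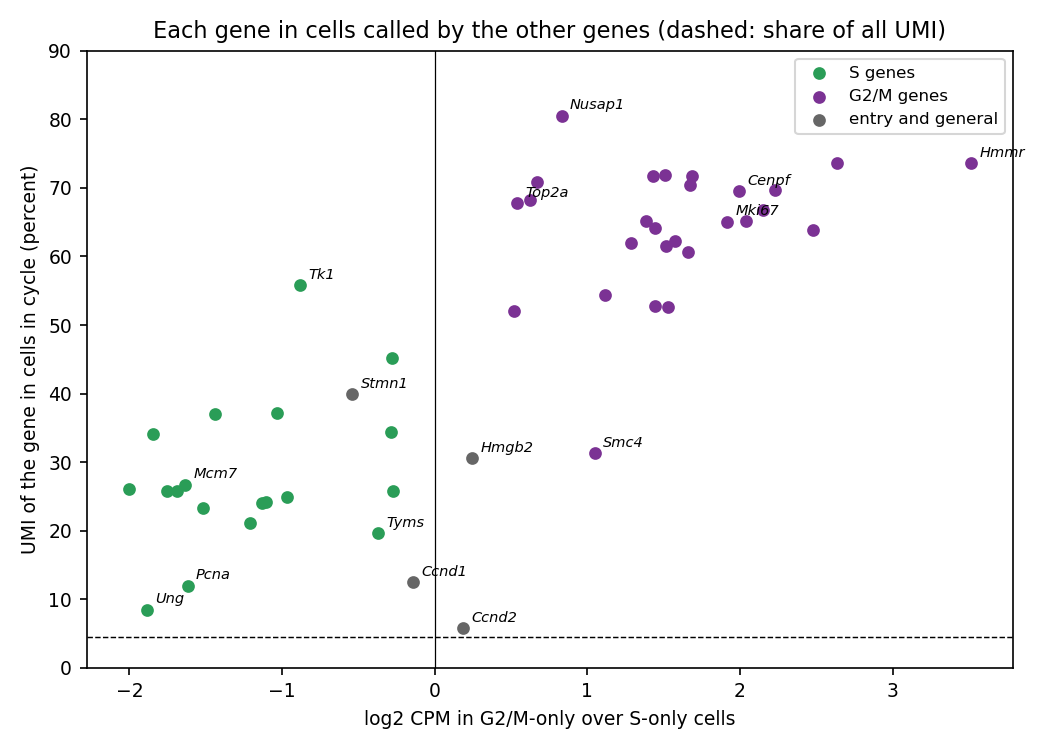
Each point is 1 of the 50 genes. The horizontal axis is the log2 ratio of its CPM in G2/M-only over S-only cells, the vertical axis the percent of its UMI in cells in cycle (dashed line: the share of all UMI in those cells), with cells called by the other members. S genes lie left of 0 and mostly below 40%, and G2/M genes lie right of 0 and mostly above 50%.

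Genes outside the list showed the same cells in another way. Cells in cycle had more Cd44, the gene of the sorting marker (101 against 51.0 CPM), and more of 8 stem cell markers (801 against 241 CPM summed), and less of 6 surface colonocyte markers (172 against 3701 CPM). Of the other S genes, 35 of 36 were at least 2-fold higher in cycling cells, and of the other G2/M genes 47 of 50, beside 17.8% higher and 10.2% lower of all 11011 genes outside the members. The exceptions, named after their values were seen, were Rfc2 (1.77-fold), Tubb4b (1.44-fold), Fzr1 (1.53-fold) and Pttg1, the securin gene, at 0.45-fold. Among the E2F and DREAM regulators 15 of 23 were higher and 0 lower (14 and 0 without the repeats). The largest ratios were those of E2f7 and E2f8, repressors of the E2F family (41.6-fold and 26.8-fold), and of Mybl2, which encodes B-Myb (13.0-fold). Rb1, the retinoblastoma gene, was at 113 and 94.3 CPM.

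Genes that brake the cycle were found on both sides. Of 19 such genes, 5 were at least 2-fold higher in cycling cells and 7 lower (5 and 6 without the repeats), beside the 17.8% higher and 10.2% lower of all genes outside the members. Lower were the CDK inhibitors Cdkn1a (32.2 against 189 CPM) and Cdkn2b (8.46 against 64.9 CPM) and the Myc antagonist Mxd1 (36.1 against 243 CPM), together with Cdkn1c, Ccng2, Gadd45a and Btg1. Higher were Cdkn3, a phosphatase of CDKs (38.6-fold), the INK4 genes Cdkn2c (16.1-fold) and Cdkn2d (5.19-fold), the mitosis entry kinase Wee1 (5.39-fold) and Trp53 (2.61-fold). Single brakes and regulators other than Rb1, Btg1, Ccng2 and Cdkn3 were named after their values were seen. Outside all lists, the 8 genes with the largest ratios included Iqgap3 (90.9-fold), Esco2, which acetylates cohesin in S phase (84.9-fold), Depdc1a (60.9-fold) and 5 histone genes such as Hist1h2ap (86.4-fold). Histone genes have near-identical copies, so reads may be split among them and their values are uncertain.

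**Figure D4:**
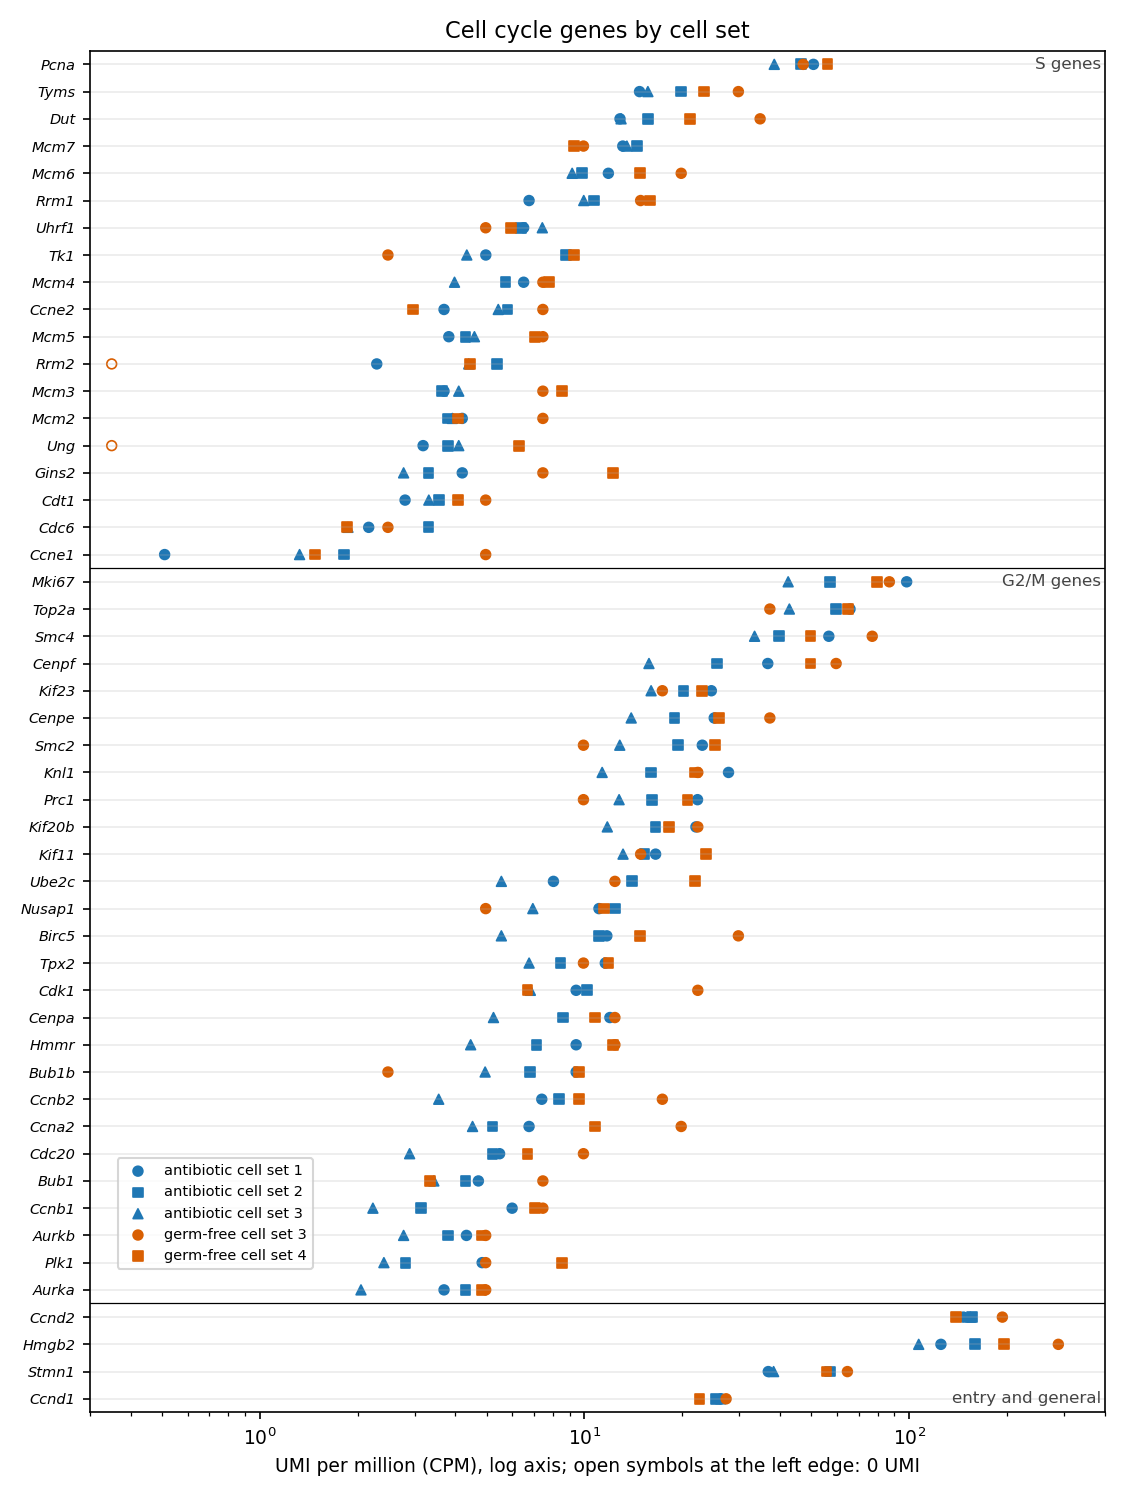
CPM (horizontal log axis) of each of the 50 genes in the 3 antibiotic (blue) and 2 germ-free (orange) cell sets, by list and mean level. Open symbols at the left edge mark 0 UMI (Rrm2 and Ung in germ-free 3), and both germ-free sets lie right of all antibiotic sets in genes such as Cenpf and Ccna2.

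Between conditions, the members leaned to higher levels in germ-free cells. A gene was called when its CPM differed at least 1.5-fold and both germ-free sets lay beyond all 3 antibiotic sets. By that rule 18 of 48 members were higher (7 S genes, 10 G2/M genes and Hmgb2) and 0 lower, beside 7.84% higher and 8.83% lower of all 11059 genes with at least 100 UMI, and the counts were the same without the repeats. With a mean of per-cell CPM, 9 were higher, beside 1255 of the 11059 genes (867 in the main setting). With cells thinned to 1000 UMI 3 were lower, beside 1511 of those genes (976 in the main setting). The median log2 ratio was 0.44 for 17 S genes (interval 0.16 to 0.60), 0.44 for 27 G2/M genes (0.37 to 0.74) and 0.14 for the 4 entry genes (-0.16 to 0.69), against 0.03 over all genes. These intervals span the genes of a list, which are not independent, and do not bound a difference between conditions. With a mean of per-cell CPM the G2/M median was 0.077, outside its interval. Summed S genes were at 159, 176 and 151 CPM in antibiotic 1 to 3 and at 221 and 216 CPM in germ-free 3 and 4. Summed G2/M genes were at 544, 420 and 296 CPM against 578 and 557 CPM, so that antibiotic 1 came close to the germ-free sets. Without germ-free 3, the shallowest set, 20 members were higher and 1 lower, beside 945 and 1095 of all genes. Without antibiotic 3, the set with the lowest sums, 10 members were called higher, beside 694 of all genes, and the G2/M median was 0.21. A summed level cannot tell more cycling cells from more RNA of these genes per cell. In germ-free cells, 10 of 768 profiles held 36.5% of the 1737 G2/M UMI. In antibiotic cells, 10 of 3415 profiles, a smaller part of the cells, held 19.5% of 14269, so the 2 shares cannot be compared directly. Leaving out the deepest 1% of cells of each cell set gave 16 members higher and 2 lower, beside 892 and 998 of all genes.

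The helicase and its loading factors went in both directions. Gins2, which joins the helicase to the polymerase complex, was at 4.2, 3.31 and 2.77 CPM in antibiotic 1 to 3 and at 7.44 and 12.2 CPM in germ-free 3 and 4. Its ratio of 3.56 (2.38 to 5.21) was the largest among the members. Mcm3 was at 3.69, 3.64 and 4.10 against 7.44 and 8.53 CPM (2.17-fold, 1.37 to 3.32), and Mcm6 at 11.8, 9.84 and 9.16 against 19.9 and 14.8 CPM (1.55-fold, 1.12 to 2.10). Mcm7, a subunit of the same ring, was lower in both germ-free sets, at 13.1, 14.5 and 13.5 against 9.93 and 9.27 CPM. Its ratio was 0.68 (0.45 to 0.99), or 1.47-fold lower, just under the fold used. Germ-free 3 holds few UMI of each of these genes, only 3 for Gins2 and 3 for Mcm3.

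Among genes of DNA synthesis and nucleotide supply, Dut, which keeps uracil out of DNA, was at 12.9, 15.7 and 13.0 CPM in the antibiotic sets against 34.7 and 21.1 CPM in the germ-free ones (1.65-fold, 1.27 to 2.12). Rrm1 was at 6.75, 10.7 and 9.95 against 14.9 and 15.9 CPM (1.66-fold, 1.21 to 2.25). Both were called, which by rule needs cell sets apart. Tyms, thymidylate synthase, was also apart at 14.8, 19.9 and 15.7 against 29.8 and 23.4 CPM, but its ratio of 1.43 (1.11 to 1.83) was under the fold used. Pcna overlapped, at 50.7, 46.3 and 38.4 against 47.1 and 56.0 CPM (1.26-fold, 1.07 to 1.47). Rrm2 and Ung had 0 UMI in germ-free 3, whose 403007 UMI make 1 UMI a large step.

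Of the cyclins, the A and B types were called higher and the D types and Ccne2 were not. Ccna2, cyclin A2, was at 6.75, 5.21 and 4.52 CPM in the antibiotic sets against 19.9 and 10.7 CPM in the germ-free ones (2.28-fold, 1.56 to 3.26). The B-type cyclins Ccnb1 (2.12-fold, 1.28 to 3.36) and Ccnb2 (1.78-fold, 1.20 to 2.58) were also called. Ccnd2 was at 147, 156 and 154 against 194 and 139 CPM (0.95-fold, 0.86 to 1.05) and Ccnd1 at 26.4, 25.4 and 26.3 against 27.3 and 22.6 CPM (0.89-fold, 0.69 to 1.14). For both D-type cyclins germ-free 3 was above and germ-free 4 below all antibiotic sets. Cyclin E2, Ccne2, was at 0.69-fold (0.34 to 1.26), and Ccne1, with 54 UMI in all and not ranked, at 1.47-fold (0.51 to 3.45). Cdk1, the kinase that cyclins A and B activate, was at 1.03-fold (0.67 to 1.52), with 22.3 CPM in germ-free 3 and 6.67 CPM in germ-free 4.

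Hmgb2, Cenpf, Cenpe and Birc5, genes of chromosome structure and the centromere, were higher in germ-free cells. Hmgb2 had 125, 159 and 107 CPM in the antibiotic sets against 288 and 196 CPM in the germ-free ones (1.62-fold, 1.49 to 1.76). Cenpf, a kinetochore protein, had 36.7, 25.6 and 15.8 against 59.6 and 49.7 CPM (2.17-fold, 1.82 to 2.57), and Cenpe, a kinetochore motor, 25.1, 18.9 and 13.9 against 37.2 and 25.9 CPM (1.52-fold, 1.20 to 1.91). Birc5, the survivin subunit of the chromosomal passenger complex, had 11.7, 11.1 and 5.55 against 29.8 and 14.8 CPM (1.93-fold, 1.41 to 2.59). All 4 were called, which by rule needs cell sets apart. Germ-free sets lay above all antibiotic sets in 2747 and below them in 2643 of all 11059 ranked genes. Mki67 was not called: antibiotic 1, at 98.2 CPM, was above both germ-free sets at 86.8 and 79.7 CPM, while antibiotic 2 and 3 were at 57.2 and 42.4 CPM (1.36-fold, 1.19 to 1.55). Top2a overlapped too, at 65.7, 59.5 and 42.7 against 37.2 and 64.9 CPM (1.15-fold, 0.99 to 1.34).

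In the machinery that ends mitosis, Cdc20, an activator of the anaphase-promoting complex, was called at 1.68-fold (1.02 to 2.64), with 5.48, 5.21 and 2.89 against 9.93 and 6.67 CPM. Ube2c, a ubiquitin-conjugating enzyme of the same pathway, was at 8.02, 14.0 and 5.55 against 12.4 and 21.9 CPM (2.33-fold, 1.75 to 3.05), and its sets overlapped. Plk1, polo-like kinase, was called at 2.63-fold (1.63 to 4.09) with 4.84, 2.81 and 2.41 against 4.96 and 8.53 CPM, of which germ-free 3 rests on 2 UMI. The direction of Cdc20 and Plk1 turned with cells thinned to 1000 UMI, to log2 ratios of -0.19 and -0.53. The checkpoint kinase genes Bub1 (0.97-fold, 0.49 to 1.74) and Bub1b (1.34-fold, 0.86 to 1.99) were not called. Of the spindle genes, Hmmr was called, at 9.42, 7.11 and 4.46 against 12.4 and 12.2 CPM (1.91-fold, 1.32 to 2.70). Kif23, a cytokinesis motor, was at 1.16-fold (0.89 to 1.48) and Stmn1 at 1.29-fold (1.09 to 1.5), and neither was called. The remaining 3 called members were the helicase genes Mcm4 (1.52-fold, 0.95 to 2.33) and Mcm5 (1.64-fold, 0.999 to 2.57) and the mitotic kinase Aurka (1.54-fold, 0.83 to 2.64), each with an interval that includes 1. The 30 members not called ran from 0.68-fold (Mcm7) to 2.33-fold (Ube2c), and of those not named in this comparison Kif11, a spindle motor, was highest at 1.55-fold and Uhrf1, which recognises hemimethylated DNA, lowest at 0.84-fold.

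The other cell cycle genes leaned less. Of 36 other S genes 8 were higher in germ-free cells and 3 lower, with a median log2 ratio of 0.30, and of 50 other G2/M genes 9 were higher and 1 lower, with a median of 0.06. Without the repeats the counts were 7 and 3, and 10 and 1. Mad2l1, a spindle checkpoint gene, was at 2.32-fold (1.41 to 3.64) and Ect2, a regulator of cytokinesis, at 1.76-fold (1.43 to 2.15). Lower were Chaf1b, a histone chaperone subunit (0.33-fold, 0.09 to 0.88), Pole, Dnmt1, the maintenance DNA methyltransferase (0.66-fold, 0.47 to 0.90), and Ncapd2, the last 2 named after their values were seen. Of 23 regulators 1 was called, Cdk4, the kinase partner of D-type cyclins, with 12.1, 17.9 and 13.1 against 32.3 and 24.1 CPM (1.73-fold, 1.35 to 2.20). Of 19 brakes 2 were higher and 2 lower, and neither the regulator nor the brake counts stand far from the 7.84% higher and 8.83% lower among all genes. Btg1, an antiproliferative gene, was at 398, 431 and 466 CPM in the antibiotic sets against 268 and 231 CPM in the germ-free ones (0.54-fold, 0.50 to 0.58), and Ccng2, a cyclin tied to arrest, at 105, 90.5 and 96.3 against 62 and 62.6 CPM (0.65-fold). Ccng1 (1.68-fold, 1.38 to 2.04) and Cdkn3 (1.58-fold, 0.91 to 2.60) were higher.

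The cells were then divided by marker gates that used no member, applied at 1000 UMI per cell. Cells with at least 4 UMI of 11 goblet markers were goblet gate cells, and the other gates excluded them. At least 1 Lgr5 UMI made an Lgr5 gate cell, at least 2 UMI of proximal markers and none of distal ones a proximal gate cell, the converse a distal gate cell, and at least 3 UMI of 6 surface colonocyte markers a surface gate cell. Proximal markers were Cyp2c55, Mettl7b, Fabp2, Osr2, Defb37, Clca4a, Slc13a1 and S100g. Distal markers were Hoxb13, Hoxd13, Hoxa13, Hoxd12, Hoxd11, Hoxd10, Slc37a2, Cldn8, Sycn and Atp12a. Cyp2c55 gave 1765 of the 3122 CPM of proximal markers in antibiotic and 492 of 1438 CPM in germ-free cells. Sycn gave 908 of the 1113 CPM of distal markers in antibiotic and 894 of 1209 CPM in germ-free cells. Surface colonocytes have left the cycle, and their share in cycle serves as background: 1 of 941 antibiotic cells (0.11%, up to 0.59%) and 2 of 178 germ-free cells (1.12%, up to 4%), with median depths of 12802 and 4693 UMI. Cells of no gate held most of the cycling cells, 121 of 1113 antibiotic (10.9%, 9.10 to 12.8%) and 24 of 234 germ-free (10.3%, 6.68 to 14.9%). A single draw of 1000 UMI moved the shares of small gates, so the mean of 20 draws, added after the values were seen, is given beside the gates that follow. Without the repeats the antibiotic shares were 0.13% in the surface gate and 10.6% in cells of no gate.

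Lgr5 cells held the highest share of the gates in antibiotic cells, and the few germ-free Lgr5 cells gave no stable order. With Lgr5 read at 1000 UMI, 7 of 32 antibiotic cells (21.9%, 9.28 to 40.0%) and 2 of 9 germ-free cells (22.2%, 2.81 to 60.0%) were in cycle, with means of 21.9% and 25.2% over 20 draws. The germ-free value was 0% at 500 UMI per cell, with at least 5 UMI of a list or with at most 15% mitochondrial UMI, and the antibiotic value was 0% with gates 2 UMI higher. Without the repeats the antibiotic share was 22.6% (7 of 31). With Lgr5 read on all UMI of the cell, an alternative added later, the shares were 15 of 104 (14.4%, 8.30 to 22.7%; 20 draws 17.6%) and 4 of 14 (28.6%, 8.39 to 58.1%; 20 draws 26.8%). Levels of the members followed, with S genes summing to 565 CPM in the Lgr5 gate and 163 CPM in other cells and G2/M genes to 1109 and 397 CPM. At least 2-fold higher were 31 of 48 members and lower 2, Ccnb1 and Plk1 with 0 UMI in these 41 cells, beside 19.4% higher and 18.6% lower of all genes, and no cell set had the 20 cells needed to check direction. With the gate on all UMI, which 3 cell sets could check, 32 were higher and 0 lower, beside 8.59% and 3.69% of all genes.

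In that larger Lgr5 gate, helicase genes had some of the largest ratios. Mcm4 was at 29.2 CPM in gate and 4.35 CPM in other cells, Mcm6 at 55.1 and 8.51 CPM, and Mcm7 at 62.6 and 11.5 CPM. Stmn1 was at 214 and 38.7 CPM, Top2a at 197 and 48.0 CPM, and Mki67 at 146 and 57.2 CPM. By cell set, Stmn1 had 62.6, 405 and 161 CPM in antibiotic 1, 2 and 3, so antibiotic 2 was well above the others, whereas Mki67 was even at 166, 141 and 140 CPM. Ccnd2 was at 218 CPM in gate and 150 CPM in other cells and was not called. Members other than Mcm6, Mcm7, Stmn1, Mki67 and Ccnd2 are named here after their values were seen.

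In the main draw, the share in goblet cells was near that of all cells in both conditions. In antibiotic cells this depended on the draw and the setting. Single draws of the antibiotic goblet share ran from 1.73 to 6.18%, against 4.84 to 5.67% for all antibiotic cells. Without the repeats the means of 20 draws were 3.60% and 5.11%. With fewer UMI per cell or a higher threshold of the call, the goblet share lay below that of all antibiotic cells. With more UMI or a lower threshold it lay above. In the goblet gate 10 of 179 antibiotic cells were in cycle (5.59%, 2.71 to 10.0%; 5% without the repeats; 20 draws 4.27%) and 5 of 76 germ-free cells (6.58%, 2.17 to 14.7%; 20 draws 6.59%), at median depths of 7094 and 3056 UMI. Of the 10 antibiotic cells 4 were called by S genes alone, 5 by G2/M genes alone and 1 by both, whereas over 20 draws G2/M genes alone called 79.3% of the antibiotic goblet cells in cycle. Summed G2/M genes were at 406 CPM in goblet gate cells and 402 CPM elsewhere, and S genes at 202 and 163 CPM. The cell sets differed widely, with G2/M sums of 763, 271 and 276 CPM in the goblet cells of antibiotic 1 to 3. In germ-free 3 and 4 they were 790 and 381 CPM. A single cell held 17.7% of the antibiotic and another 31.8% of the germ-free G2/M UMI of the gate. No member was called either way, beside 6.47% higher and 7.28% lower of all genes. Goblet markers themselves summed to 971 CPM in the antibiotic cells against 2783 CPM in the germ-free ones.

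Of the goblet, Lgr5, distal and proximal gates, the proximal gate had the lowest share in antibiotic cells, and in germ-free cells its place depended on the draw and the depth. In it 5 of 1076 antibiotic cells were in cycle (0.46%, 0.15 to 1.08%; 20 draws 0.63%) and 10 of 165 germ-free cells (6.06%, 2.94 to 10.9%; 20 draws 4.06%), at median depths of 10360 and 3488 UMI. Without the repeats the antibiotic share was 0.45% (4 of 890). Surface gate cells made up 58.0% of the antibiotic and 52.1% of the germ-free proximal cells, and without them the shares were 1.11% (5 of 452) and 11.4% (9 of 79). The germ-free share was 2.74% with another seed, 1.92% with gates 2 UMI higher and 0% at 500 UMI per cell. G2/M genes summed to 83.6, 88.1 and 91.9 CPM in the proximal cells of antibiotic 1 to 3 and to 625 and 608 CPM in those of germ-free 3 and 4, a ratio of 6.87 (6.18 to 7.61). S genes summed to 94.7 CPM in the antibiotic proximal cells against 216 CPM in the germ-free ones (2.28-fold, 1.94 to 2.67).

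Several measures moved with that difference, and their part in it was not tested. One germ-free cell held 26.1% of the 505 G2/M UMI of the gate, and without the deepest 1% of cells of each cell set the ratio was 5.29. Proximal cells not in cycle also differed, with 75.9 and 453 CPM of G2/M genes. In surface gate cells, G2/M genes were at 67.5 CPM in the antibiotic cells against 189 CPM in the germ-free ones (2.80-fold, 2.38 to 3.28), whereas cells of no gate had 845 and 791 CPM (0.94-fold, 0.87 to 1.00). The markers that define the gate differed as well, with 3122 CPM in the antibiotic cells against 1438 CPM in the germ-free ones.

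Over both conditions, proximal gate cells had 0 members higher and 9 lower, beside 2.69% higher and 10.2% lower of all genes, with a median log2 ratio of -1.73 over the 48 members and -0.29 over all genes. The 9 were Mcm5, Tyms, Gins2, Mki67, Ccnb2, Cenpf, Cenpe, Ccnd2 and Stmn1. Mki67 was at 13.7 CPM in the gate and 91.8 CPM elsewhere, and within the gate at 9.29, 12.5 and 8.95 CPM in the antibiotic sets against 49.0 and 79.0 CPM in the germ-free ones. Ccnd2 was at 35.5 and 231 CPM. Pcna was at 46.5 CPM in the gate and 43.6 CPM elsewhere (1.07-fold), although S genes together were at 101 and 208 CPM. Without germ-free 4, 25 members were lower, and without germ-free 3, 18. Leaving out a set also drops a check of direction for every gene. The share of all genes under these settings is not given, so the larger counts say nothing particular about the members.

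Distal gate cells were in cycle in 11 of 217 antibiotic cells (5.07%, 2.56 to 8.89%; 20 draws 5%) and 2 of 66 germ-free cells (3.03%, 0.37 to 10.5%; 20 draws 1.89%), at median depths of 12416 and 3623 UMI. Without the repeats the antibiotic share was 2.98% (5 of 168), so 6 of the 11 cells were repeated barcodes. With a distal gate of Hox genes only, the antibiotic share was higher and no germ-free gate cell was in cycle. G2/M genes summed to 281, 769 and 250 CPM in antibiotic 1, 2 and 3 and to 178 and 343 CPM in germ-free 3 and 4, and antibiotic 2 was far above the other sets. Of the members 2 were higher and 0 lower, beside 1.48% and 4.49% of all genes. Ccnd2 was at 368 CPM in the gate and 128 CPM elsewhere, with 430, 325 and 382 CPM in the antibiotic distal cells against 513 and 305 CPM in the germ-free ones. Stmn1 was at 107 and 38.3 CPM, with 44.4, 185 and 75.7 CPM in the antibiotic distal cells against 134 and 64.7 CPM in the germ-free ones. Mki67 was at 40.4 CPM in the gate and 62.8 CPM elsewhere.

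**Figure D5:**
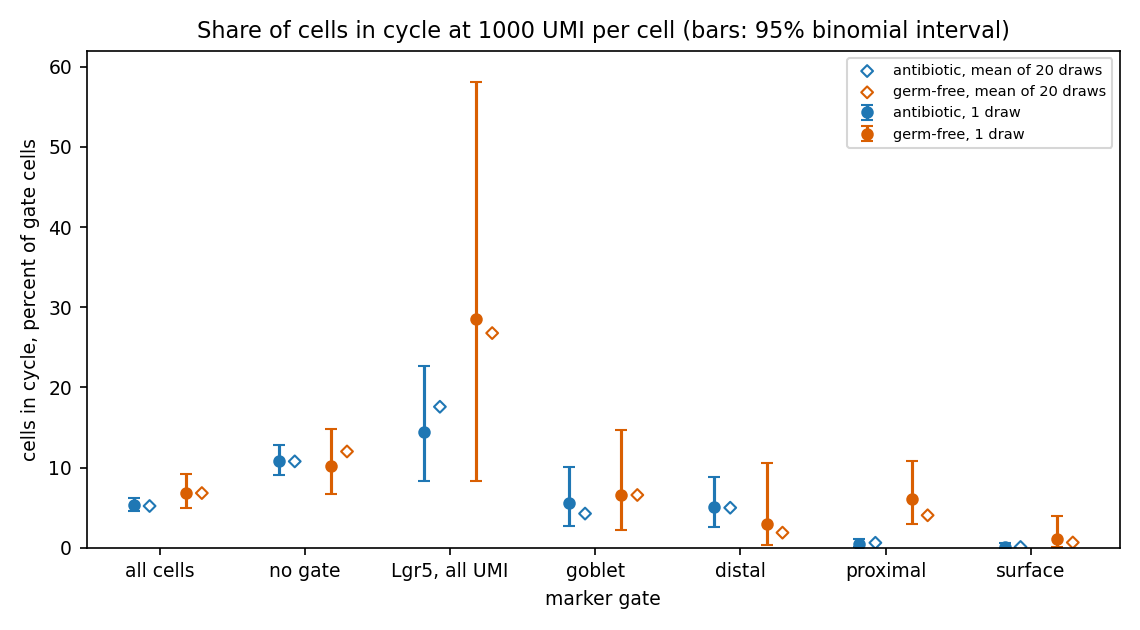
Percent of cells in cycle (vertical axis) at 1000 UMI per cell by marker gate (horizontal axis), antibiotic in blue and germ-free in orange. Filled points with bars are 1 draw with its 95% Clopper-Pearson interval and open diamonds the mean of 20 draws, and the 2 conditions lie apart in the proximal gate (0.46% and 6.06%) and overlap in the others.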

How the data were processed

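The deposited matrix holds, for 32285 genes in 4183 cells, natural log values of UMI per 10000 plus 1, as the authors normalized them; this scale was read from the values, since the labels do not state it. Per the submitters' processing notes, which assign no roles, the tools were kallisto, bustools and Cell Ranger 7.0.0, with build mm10. Filters on cells are not stated there. Whole UMI were recovered for 9481333 of 9481333 nonzero values, within 0.01 of a whole number. Cell names give the condition and a number. The germ-free numbers do not match library names, so cells were assigned to conditions, and the numbered cell sets are shown side by side.

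UMI were summed to CPM, and log2 ratios used CPM plus 1. Genes with at least 100 UMI were ranked. Calls between conditions needed 1.5-fold and cell sets apart, and calls by gate needed 2-fold and the same direction in each cell set with at least 20 gate cells. Thinning to 1000 UMI drew without replacement with a fixed seed. Poisson, conditional binomial, Clopper-Pearson and order-statistic intervals (for medians) are at 95%. With 1 pool per condition no test was run. Scrublet marked 22 of 4183 cells as doublets, which were kept, with an alternative that left them out. Programs were Python 3.11.15 with NumPy 2.4.6, pandas 2.3.3, SciPy 1.17.1, Scanpy 1.11.5 and matplotlib 3.10.9, tested on simulated data.

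Members and lists were chosen with earlier results of these data known. Genes were named by rule: the 2 members with most UMI in each of 8 roles, up to 12 called members by size of ratio, in each other list the 2 genes with most UMI and up to 4 called, and the 8 genes outside all lists with the largest ratio in cycling cells. Members outside the rule are named where they bound a range or a count, after their values were seen. Alternatives changed depth, thresholds, scaling, gates, cells and cell sets.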

Additional observations from a re-analysis of the deposited data

Results flagged for a closer look

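The difference between proximal and distal gate cells in the share of cells in cycle pointed one way in the 3 antibiotic cell sets and the other way in the 2 germ-free sets, and this difference between conditions was not tested. Proximal minus distal, it was -2.19, -5.60 and -4.72 percentage points in antibiotic 1, 2 and 3 and 6.52 and 0.75 points in germ-free 3 and 4. It rests on few cells. In antibiotic 1, 2 and 3, 1 of 264, 1 of 352 and 3 of 460 proximal cells were in cycle. Of the distal cells there, 1 of 39, 5 of 85 and 5 of 93 were. In germ-free 3 and 4 these were 3 of 46 and 7 of 119 proximal and 0 of 27 and 2 of 39 distal cells. The intervals of the 2 shares overlapped in every set but antibiotic 2. Without the repeated barcodes the difference was -2.19, -4.07 and -1.03 points in the antibiotic sets and again 6.52 and 0.75 points in the germ-free sets, and the intervals overlapped in every set. Over 20 draws of 1000 UMI the mean differences were -4.37, -5.18 and -3.69 points and 4.21 and 1.03 points. The draws thin the same cells again and show the spread from thinning only. The share was higher in distal cells in 17, 20 and 20 of 20 draws for antibiotic 1, 2 and 3, and higher in proximal cells in 19 and 13 of 20 draws for germ-free 3 and 4. In germ-free 4 single draws ran from -5.07 to 5.73 points. Without the repeats, antibiotic 3 was at -1.06 points, with distal cells higher in 14 of 20 draws. Surface gate cells made up 58.0% of antibiotic and 52.1% of germ-free proximal cells, against 16.6% and 22.7% of distal cells. Their part in the difference was not tested.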

How the results depend on the processing

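Of the summary values, 245 of those recomputed under an alternative kept their direction and size and 76 moved. Of the values of single genes, 291 stayed, 49 moved and 2 turned: thinned to 1000 UMI, Cdc20 was at a log2 ratio of -0.19 and Plk1 at -0.53. The cause of each shift was not tested. The G2/M median was 0.077 with a mean of per-cell CPM, 0.32 with thinning to 1000 UMI, 0.36 with median-of-ratios scaling and 0.34 with a pseudocount of 5 CPM, and 0.21 (without antibiotic 3) to 0.64 with 1 cell set left out. The number of calls among all genes also changed with the setting. Of all genes, 867 were higher and 976 lower in the main setting, 1255 and 1441 with per-cell CPM and 694 and 1075 without antibiotic 3. With thinning they were 1316 and 1511. Without germ-free 4 they were 2243 and 2673, so member counts in that setting cannot be set against the main shares. Counts of all genes at 2-fold are not given. Members higher in germ-free cells numbered 9 with per-cell CPM and 6 at 2-fold, and 10 (without antibiotic 3) to 24 (without germ-free 4) with 1 set left out. Members lower numbered 3 with thinning, 1 with median-of-ratios scaling, 2 without the deepest 1% of cells and 0 to 7 (without germ-free 4) with 1 set left out. Among all genes, higher calls made up 47.0% of calls, 33.4% with median-of-ratios scaling and 64.7% with totals without mitochondrial genes, where the median of all genes was 0.13 in place of 0.03 and the S and G2/M medians were 0.54 and 0.55.

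The antibiotic share of cells in cycle was 2.99% at 500 UMI, 7.96% at 2000 UMI, 8.30% with at least 2 UMI of a list, 3.29% with at least 5, 9.41% with the other replication and mitosis genes and 30.6% without thinning, and the germ-free share 3.21%, 10.3%, 12.3%, 3.04%, 10.9% and 19.8%. G2/M genes alone called 93.9%, 64.4%, 70.4%, 95.8% and 51.5% of the antibiotic cells in cycle under the first 5 of these. In the gates, 500 UMI gave 0% for antibiotic goblet and surface cells and for germ-free Lgr5, proximal, distal and surface cells, and 1.41% for germ-free goblet cells. Thinning to 2000 UMI gave 10.1% (goblet), 1.25% (proximal) and 0.72% (surface) in antibiotic and 11.7% (proximal) in germ-free cells. At least 2 UMI of a list gave 11.2%, 1.77% and 0.96% in the same antibiotic gates and 10.9% (proximal) and 4.49% (surface) in germ-free cells. At least 5 UMI gave 0.56% in antibiotic goblet cells and 0% (Lgr5), 2.42% (proximal) and 0% (surface) in germ-free cells. Another seed gave 1.75% in antibiotic goblet cells, 2.74% in germ-free proximal cells and 0% in surface cells of both conditions. Gates 2 UMI higher gave 0% for antibiotic Lgr5, proximal and surface and germ-free Lgr5 cells and 1.92% for germ-free proximal cells, and gates 1 UMI lower gave 1.86% for antibiotic proximal cells. Without surface gate cells, proximal shares were 1.11% and 11.4%. Distal gates of Hox genes only gave 11.8% in antibiotic and 0% in germ-free cells. At most 15% mitochondrial UMI gave 0% in germ-free Lgr5 cells. With 1 set left out, shares ran from 0% to 28.6% (germ-free Lgr5), 0% to 5.13% (germ-free distal, 0% without germ-free 4) and 0% to 0.16% (antibiotic surface).

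By gate, proximal cells had 18 members lower with per-cell CPM, and the Lgr5 gate on all UMI had 0 lower. With 1 set left out, the counts ran from 0 to 1 (goblet, higher), 17 (without antibiotic 3) to 36 (Lgr5, higher), 2 to 6 (Lgr5, lower), 9 to 25 (proximal, lower) and 1 to 3 (distal, higher). Shares of all genes by gate are not given under these alternatives, so the counts cannot be set against a background. No paired analysis was possible because each condition was 1 pool and the numbers of its cell sets tie no animals across conditions. Depth limits the germ-free values most: in germ-free 3 many members rest on 3 UMI or fewer, the Lgr5 gate held 9 germ-free cells, and a share of 0% there allows up to 33.3%.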
